A study of Mus musculus with 72 samples.

Results

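A set of 9 genes that mark or control the making of olfactory sensory neurons were followed in ribosome-depleted RNA-seq libraries of mouse olfactory epithelium: the transcription factors Neurog1, Neurod1, Insm1, Hes6, Sox11, Sox2 and Pax6, the histone methyltransferase Ezh2 and the receptor tyrosine kinase Kit. The set was a list of progenitor and early neuronal regulators, picked by symbol and matched to the counts by Ensembl identifier. All 9 of the 9 listed genes were found among the 54532 genes of the count table, and all 9 were among the 22144 genes that passed the filter on low counts.

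The study sampled 72 libraries in 25 groups. Control mice carried Omp-IRES-tTA, in which the tetracycline transactivator tTA is made from the Omp locus of mature olfactory sensory neurons. The ectopicFzd1 mice carried Omp-IRES-tTA together with tetO-Fzd1-IRES-tdTomato, a transgene for the Wnt receptor Fzd1 that tTA turns on, and their titles call them heterozygous. The Fzd1lacZ mice carried the Fzd1-lacZ allele and their titles call them homozygous. These 3 genotypes were sampled at postnatal days 0, 3, 7, 10 and 14 (P0 to P14) without doxycycline (DOX). Control and ectopicFzd1 mice were also given DOX, which keeps tTA off the tetO sequence, from P0 until sampling at P1, P3, P7, P10 or P14. The control and the ectopicFzd1 mice therefore shared the Omp-IRES-tTA allele, of a zygosity that the labels do not give. No control without that allele was labelled for the Fzd1lacZ mice. Groups held 3 libraries, except control P3, control P7 and ectopicFzd1 P14 without DOX, which held 2.

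Olfactory sensory neurons are replaced throughout life from basal stem cells. Globose basal cells divide and then become Neurog1- and Neurod1-expressing immediate neuronal precursors, which leave the cycle and mature into neurons that express Omp. Sox2 and Pax6 mark the earlier basal cells and are also found in supporting (sustentacular) cells, and Kit is used to label globose basal cells.

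Neurog1 and Neurod1 are basic helix-loop-helix proteins, a class that binds the E-box, CANNTG. As a pattern CANNTG reads the same on either strand, although a single site that matches it need not. RefSeq start sites (build GRCm38.p6) were given for 8 of the 9 genes. The windows of 250 bases before each start site of these 8 genes were searched. Every stretch that holds the motif is shown with the E-box in capitals, since it is the motif of the class. Which of these sites Neurog1 or Neurod1 can bind was not tested.
Hes6, upstream start, chr1:91414185-91414270, minus strand: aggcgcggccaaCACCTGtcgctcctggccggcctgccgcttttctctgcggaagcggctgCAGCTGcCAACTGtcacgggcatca
Hes6, downstream start, chr1:91413355-91413384, minus strand: gctccgccccgcCAGCTGccagagacccgc
Neurod1, chr2:79456861-79456886, minus strand: gggaagacCATATGgcgcatgccggg
Pax6, second start, chr2:105682431-105682460, plus strand: ttattttaaagaCAAATGtcagagaggctc
Sox11, chr12:27342911-27342940, minus strand: gggggacacgcgCAGCTGtgcgcactcgcg
Sox11, chr12:27342733-27342762, minus strand: agtgatgtcaccCATATGacaccctgataa
The upstream Hes6 stretch holds 3 E-boxes, and 12.21% of all 32851 windows of this length held 3 or more, while 66.22% held at least 1. An E-box at a start site is thus common, and a match is a description of the letters and not of binding. The letters were not in the windows of Neurog1, Sox2, Kit or Ezh2. Insm1 is named only.

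Libraries held 1314528 to 8788000 gene counts, 8.95% to 47.2% of their total reads. A family of 12 Gm10800-type genes took 0.054% to 73.7% of the gene counts and exceeded 25% in 8 libraries. These lay in Fzd1lacZ P7, P10 and P14, control P10, ectopicFzd1 P7 and ectopicFzd1 DOX P14. The median library exceeded that limit only in Fzd1lacZ P7 (25.7%) and Fzd1lacZ P10 (68.2%). Fzd1 itself was at 20.9 to 44.3 CPM (counts set to a common library size, scaled by TMM) in control, 205 to 2122 CPM in all but 1 of the 14 ectopicFzd1 libraries without DOX, and 3.48 to 20.3 CPM in Fzd1lacZ. The library labelled ectopicFzd1 P3 replicate 3 had 43.0 CPM and the library labelled control DOX P7 replicate 1 had 3.45 CPM, each against its label. No limit was set for Fzd1lacZ, whose highest library lay next to the lowest fitting control library. With DOX no ectopicFzd1 library had over 64.0 CPM. Omp, the marker of mature neurons, also varied between the control groups: without DOX it was at 185 to 287 CPM at P0, 27.8 to 27.9 at P3, at most 30.1 at P7, 46.9 to 61.1 at P10 and 1329 to 1514 at P14. In Fzd1lacZ, Omp was at 422 to 3018 CPM over all ages. Without DOX ectopicFzd1 had 133 to 195 CPM at P0, 12.4 to 74.7 from P3 to P10 and 28.1 to 31.3 at P14. With DOX it had 20.6 to 27.9 CPM at P1, 26.6 to 30.5 at P3 and 24.5 to 35.1 at P7. At P10 and P14 with DOX it had 30.8 to 41.9 and 52.7 to 63.6 CPM. Control with DOX had 218 to 228, 23.8 to 36.2, 412 to 673, 865 to 890 and 1072 to 1444 CPM at these ages. The labels give no zygosity for Omp-IRES-tTA, and whether it was alike in the control and ectopicFzd1 groups was not tested. Every comparison of ages or genotypes that uses these groups shares that limit. Replicate numbers used here only name libraries, in the order of the deposited records, and are not from the labels. The titles carry identification numbers whose meaning the labels do not give. All 3 libraries of ectopicFzd1 DOX P3 share 1 such number, and 1 library of ectopicFzd1 DOX P10 shares its number with 1 of ectopicFzd1 DOX P14, so these may not be independent, and the labels do not say which other libraries come from separate animals, so p-values measure the spread between these libraries.

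Read per gene length, as the deposited TPM, Hes6 was the most abundant of the 9 with a median of 28.6 TPM over the 72 libraries. Ezh2 had a median of 17.4 TPM, Sox11 14.9, Sox2 11.9, Pax6 11.4, Insm1 7.02, Kit 5.39, Neurod1 4.84 and Neurog1 2.10. The TPM ranges of neighbours in this order overlapped: Sox2 spanned 1.56 to 28.1 TPM and Pax6 2.41 to 30.6 TPM. Neurog1 was counted 0 to 117 times per library (median 28 counts), so its values carry the most counting error. The fold between the highest and lowest group mean CPM was 3.89 for Neurog1, 3.88 for Kit, 3.27 for Insm1 and 2.90 for Neurod1, and 1.69 for Pax6, the least variable of the 9.

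**Figure D1:**
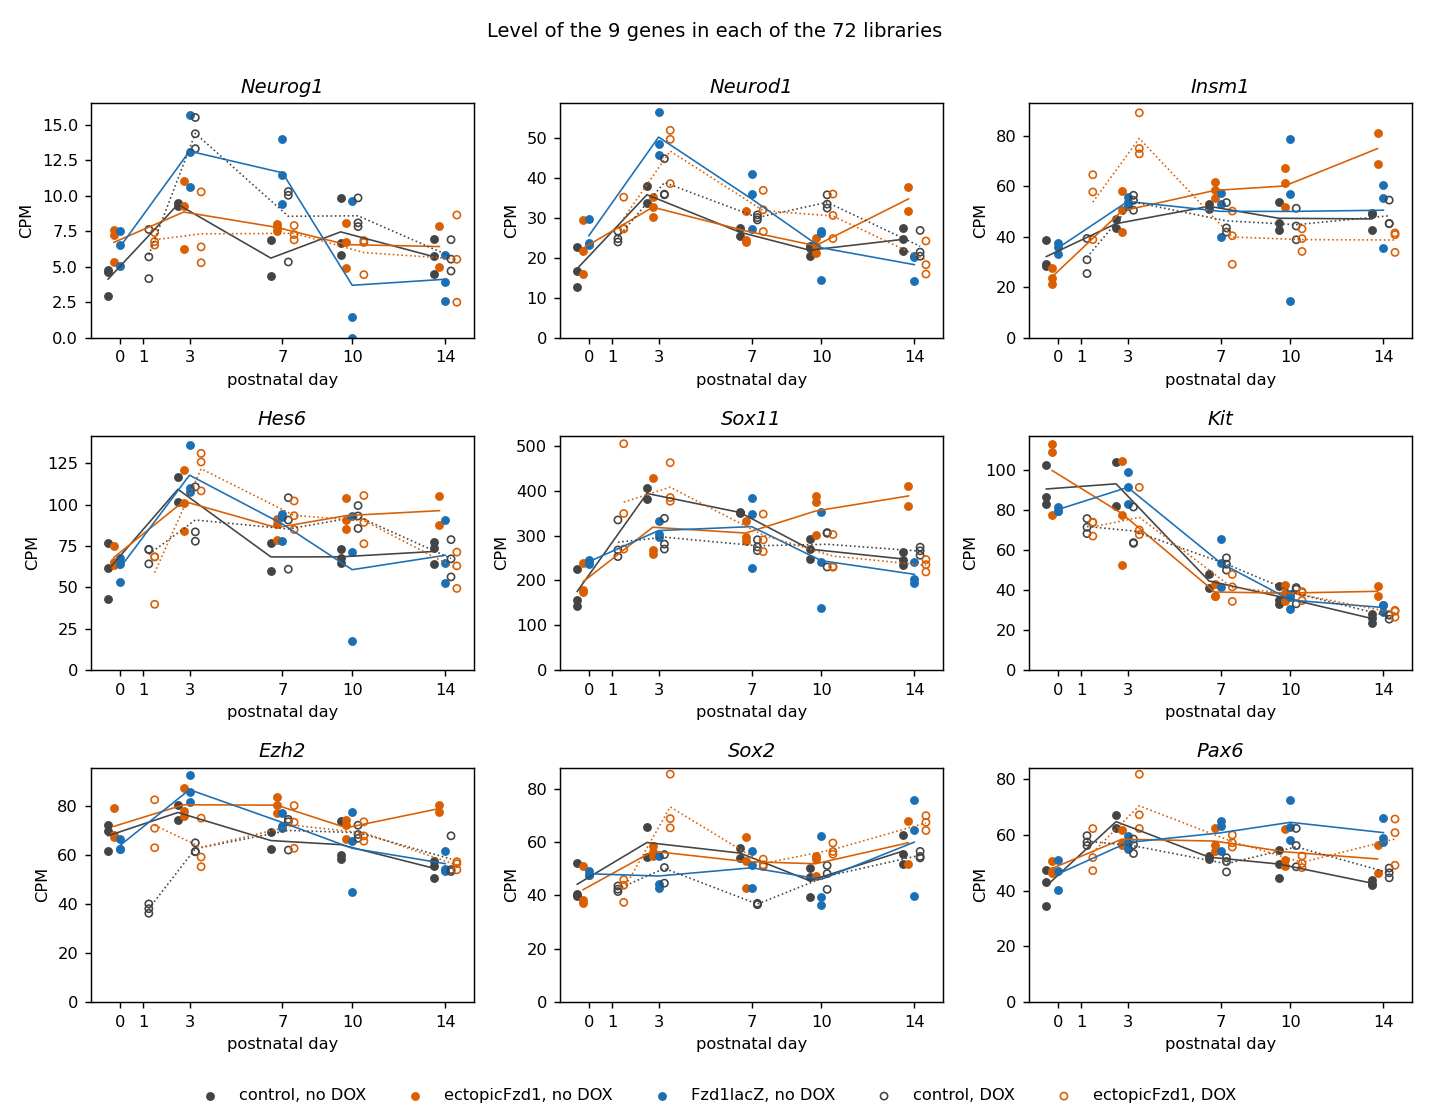
Level of each gene (CPM, linear axis from 0) against postnatal day in all 72 libraries, 1 point per library, with lines through group means; filled points are without DOX and open points with DOX, coloured by genotype and shifted sideways for legibility. In control without DOX Neurod1 is at 12.7 to 22.6 CPM at P0 and 33.7 to 37.9 CPM at P3, and Kit goes from 82 to 104 CPM at P3 to 23.3 to 27.8 CPM at P14.

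After birth the neuronal precursor genes rose together. Over the 3 genotypes without DOX, 8 of the 9 genes were higher at P3 than at P0 by edgeR's quasi-likelihood test with Benjamini-Hochberg adjustment over all 22144 genes at a threshold of 0.05, where 9.85% of all genes were called higher. In bulk tissue, more cells of a type and more RNA per cell cannot be told apart. In control and ectopicFzd1 the P0 and P3 libraries were of different title number series (the leading digits of the title numbers). Age and series therefore cannot be told apart there, while in Fzd1lacZ both ages were of the same series. At P14 without DOX each genotype was of another series than at P0 and P3. Neurog1, which commits progenitors to the neuronal fate, was at 4.66, 4.79 and 2.95 CPM in control P0 and 9.47 and 9.31 CPM in control P3, and the 2 ages did not overlap. In Fzd1lacZ it was at 6.53, 7.54 and 5.06 CPM at P0 and 13.1, 15.7 and 10.6 CPM at P3. Its mean change was 0.89 on the log2 scale (SE 0.179, adjusted p = 0.0002). Within single genotypes Neurog1 passed in control (1.17), but not in Fzd1lacZ (1.03) or ectopicFzd1 (0.46). Neurod1, the next factor in that order, went from 22.6, 16.7 and 12.7 CPM to 37.9 and 33.7 CPM in control and from 29.7, 23.3 and 23.6 CPM to 45.7, 56.4 and 48.4 CPM in Fzd1lacZ, again with no overlap. The mean change was 0.85 (SE 0.105, adjusted p = 1.73e-08).

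Insm1, a zinc-finger factor that promotes the switch from proliferating to neurogenic divisions, rose by 0.72 (SE 0.123, adjusted p = 1.43e-05). In ectopicFzd1 it went from 23.6, 27.8 and 21.2 CPM at P0 to 58.2, 50.5 and 41.8 CPM at P3, without overlap. Within control (0.49) and within Fzd1lacZ (0.60) Insm1 did not pass. Hes6, an inhibitor of Hes1 that favours neuronal differentiation, rose by 0.79 (SE 0.128, adjusted p = 5.69e-06), and Sox11, a factor of young neurons, rose by 0.74 (SE 0.121, adjusted p = 6.31e-06). Among the stem-cell and polycomb genes the rises were smaller: Ezh2 0.27, Sox2 0.28 and Pax6 0.41. Kit did not pass the test, with a difference of -0.03 (95% interval -0.21 to 0.14). By genotype, 5 of the 9 passed in control (Neurog1, Neurod1, Hes6, Sox11 and Pax6; 5.77% of all genes were called higher), 3 in ectopicFzd1 (Neurod1, Insm1 and Sox11; 5.39%) and 3 in Fzd1lacZ (Neurod1, Hes6 and Ezh2; 0.596%). On the TPM scale the signs were the same and 1 of the 9 passed with log2(TPM + 0.1) or 3 with log2(TPM + 1). The Sox2 call was lost without control P0 replicate 3 (0.26), control P3 replicate 1 (0.23), ectopicFzd1 P0 replicate 1 (0.25) or 3 (0.26), or Fzd1lacZ P3 replicate 1 (0.24).

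Some of the related genes changed in the same step, where 9.85% of all genes were called higher and 9.25% lower. Of 23 other olfactory neurogenesis regulators measured, 10 were higher and 2 lower at P3 than at P0, and 11 did not pass (median log2 change 0.28, against 0.05 for all genes). Otx2 rose by 0.61 and Lhx2 by 0.56, and Sox9 fell by 0.67. Of 15 Notch pathway genes, 4 were higher, 1 was lower and 10 did not pass: the ligand Dll3 changed by 1.39, the target Hes5 by 1.26, the Notch-modifying enzyme Mfng by 0.89, Hey1 by 0.54 and the ligand Jag1 by -0.27. Of 20 cell cycle genes 10 were higher and 10 did not pass (median 0.29). With DOX, P3 was compared with P1, and 6 of the 9 were higher in the mean over genotypes (Neurog1 0.70, Neurod1 0.64, Insm1 0.66, Hes6 0.71, Ezh2 0.27 and Sox2 0.51) where 11.2% of all genes were. Within control 4 passed (Neurog1 1.32, Neurod1 0.63, Insm1 0.76 and Ezh2 0.72; 1977 of 22144 genes called higher). Within ectopicFzd1 5 passed (Neurod1 0.65, Insm1 0.57, Hes6 1.04, Sox2 0.78 and Pax6 0.40; 1378 genes). Neurog1 was at 0.08 and Ezh2 at -0.18 in ectopicFzd1, and Hes6 at 0.38 and Sox2 at 0.24 in control. The cell cycle list did not rise with DOX as it did without. Cdk1 (-0.37), Mcm2 (-0.32), Mcm6 (-0.46), Rrm2 (-0.36) and Tk1 (-0.48) were lower at P3 than at P1, Ccnd1 (0.35) was higher, and its other genes did not pass. Nasal cartilage genes were far higher at P1 with DOX (summed level 929.6 to 2921.9 CPM) than at P3 with DOX (88.1 to 141.4 CPM), and 7 of 8 were lower at P3 (15.7% of all genes called lower). Their part in the DOX result was not tested.

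**Figure D2:**
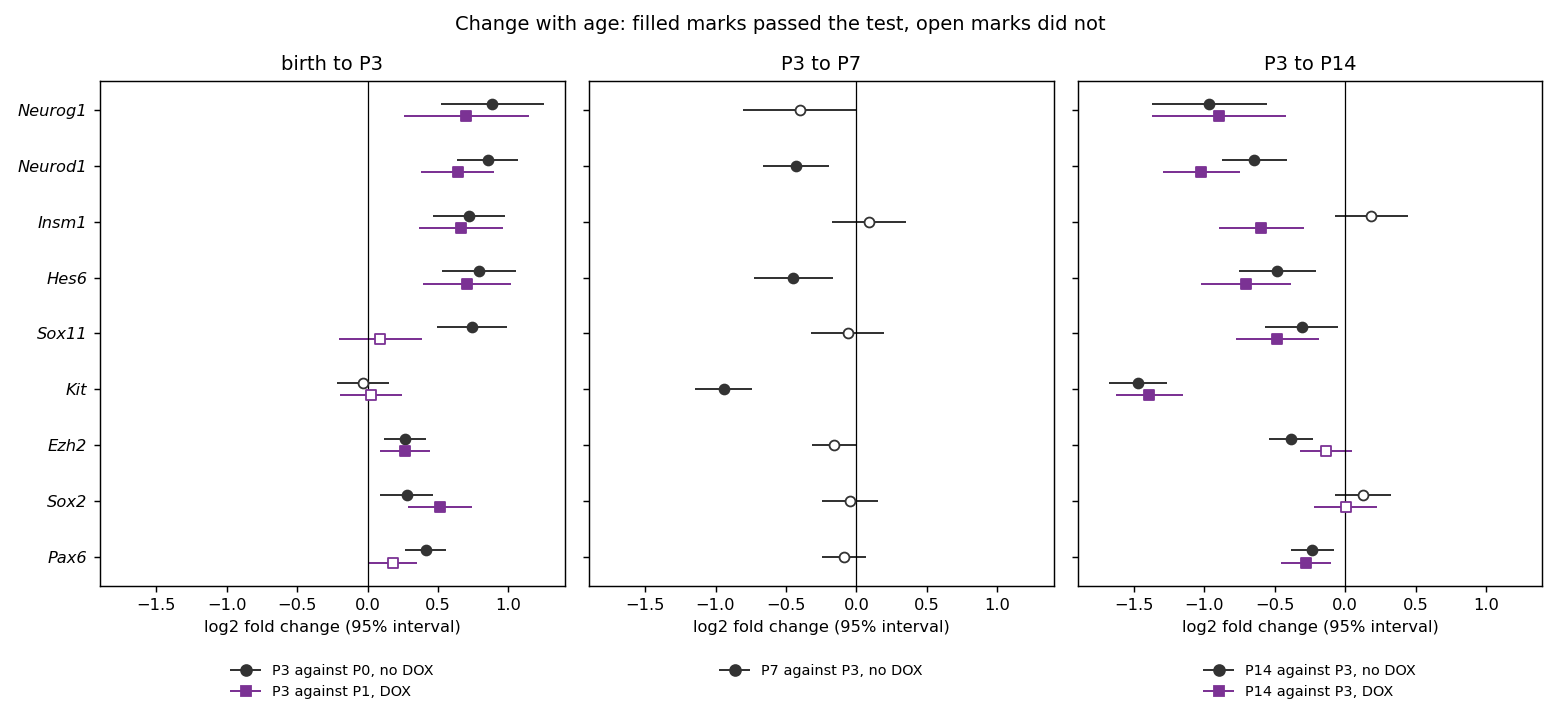
Log2 fold change with its 95% interval for each gene between ages, as means over genotypes; circles are without DOX, squares with DOX, filled where the adjusted p was below 0.05. The left panel has 8 of 9 circles filled above 0 and the right panel 7 of 9 below 0.

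From P3 to P14 most of the 9 genes declined in the mean over genotypes, Kit most. Between P3 and P14 without DOX, 7 of the 9 were lower (21.2% of all genes were called lower): Neurog1 fell by 0.96, Neurod1 by 0.64, Hes6 by 0.48, Ezh2 by 0.38, Sox11 by 0.31 and Pax6 by 0.23. Insm1 (0.19, 95% interval -0.07 to 0.44) and Sox2 (0.13, -0.06 to 0.32) did not pass. With DOX, 7 were lower as well (15.8% of all genes), there with Insm1 (-0.60) and without Ezh2 (-0.14). Without DOX the Sox11 call was lost in 11 of 16 fits that each left out 1 library (-0.22 without ectopicFzd1 P3 replicate 1), and the Pax6 call without ectopicFzd1 P14 replicate 2 (-0.19). Kit was at 86.2, 82.7 and 102 CPM in control P0, 82 and 104 at P3, 48 and 40.9 at P7, 32.9, 42 and 35.1 at P10 and 25.9, 23.3 and 27.8 at P14. No control library from P7 on reached the level of any control library at P0 or P3. Between P3 and P14 Kit changed by -1.47 (SE 0.0997, adjusted p = 2.05e-18). The first part of the decline lay between P3 and P7, where Kit fell by 0.94, Hes6 by 0.45 and Neurod1 by 0.43 (3 of 9 lower; 11.9% of all genes). With the title number series as a covariate, of these only Kit passed, while Hes6 was at -0.33 and Neurod1 at -0.45, and the number of all genes called went from 5357 to 97. The Hes6 call was also lost without control P7 replicate 1 (-0.39) and without the libraries over 25% in the Gm10800-type family (-0.39). From P7 to P10 and from P10 to P14 no gene of the 9 passed edgeR's test (2.33% and 0.524% of all genes did), and 2 of the 9 had an unadjusted p under 0.05 in each.

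By genotype, the P3 to P14 decline passed for 4 genes in control (Sox11 -0.67, Kit -1.85, Ezh2 -0.50 and Pax6 -0.60; 11.3% of all genes called lower), for Kit (-1.01) in ectopicFzd1 (4.91%) and for 6 in Fzd1lacZ (Neurog1 -1.66, Neurod1 -1.48, Hes6 -0.74, Sox11 -0.54, Kit -1.55 and Ezh2 -0.61; 13.1%). Changes above 0, none of which passed, were those of Insm1 (0.06) in control and of Sox2 (0.38) and Pax6 (0.09) in Fzd1lacZ. In ectopicFzd1 they were those of Insm1 (0.56), Sox11 (0.28), Neurod1 (0.08) and Sox2 (0.08). The counts per genotype were not tested against each other. The cell cycle list moved with the decline: 20 of 20 genes were lower at P14 than at P3 (median log2 change -1.20), where 21.2% of all genes were called lower. Of 10 Ezh2 partners in polycomb complexes, 5 were lower and 1 higher (21.2% and 19.6% of all genes). Kitl, the ligand of Kit, fell by 0.53. Mature neuron genes went the other way, with 17 of 18 higher (19.6% of all genes called higher). Set against P0, markers of mast cells, which also express Kit, were lower as well. Of these 4 of 8 were measured, and 4 of 4 were lower at P14 than at P0 (27.2% of all genes called lower). Their defining genes Cpa3, Cma1, Mcpt4, Tpsb2 and Ms4a2 had medians under 1 CPM, and Fcer1a was at 0 in 42 libraries. The summed mast cell level was 136.9 to 197.8 CPM in control P0 and 90.2 to 119.8 CPM in control P14, nearly all of it from Hdc (median 79.4 CPM over the libraries) and Gata2 (14.3 CPM). Of the measured markers of melanocytes, which also express Kit, Tyr was higher at P14 than at P0 (2.11, 31.6% of all genes called higher). Dct (1.01), Mitf (0.22) and Pmel (-0.73) did not pass. Tyr, Dct and Pmel had medians of 0.75, 0.96 and 1.31 CPM. The part of either cell type in the Kit fall was not tested.

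Set against birth, the P14 level differed between genes. Kit at P14 was 0.352 times its P0 level (log2 95% interval -1.70 to -1.31; 27.2% of all genes called lower), and was lower on every scale tried. 5 genes were higher where 31.6% of all genes were called higher: Insm1 0.91, Sox11 0.43, Sox2 0.40, Hes6 0.31 and Pax6 0.18. Sox11, Sox2, Hes6 and Pax6 had the opposite sign in TPM, a scale that put the median gene at -0.615 (log2(TPM + 0.1)). Relative to the median gene they were at 0.38, 0.28, 0.22 and 0.051 there, and at 0.19, 0.092, 0.020 and -0.12 with log2(TPM + 1), so that Pax6 kept the opposite sign on the latter scale. Neurog1 (-0.08, 95% interval -0.49 to 0.33) and Neurod1 (0.21, -0.02 to 0.43) did not pass. In control alone Neurod1 (0.50), Insm1 (0.55) and Sox11 (0.50) were higher (23.5% of all genes), Kit (-1.81) and Ezh2 (-0.31) lower (22.2%). With DOX, P14 against P1, Sox2 was higher (0.52; 21.8% of all genes), Kit (-1.37), Sox11 (-0.39) and Neurod1 (-0.38) lower (26.6%), and on the TPM scale Sox2 had the opposite sign. These are means over control and ectopicFzd1. Within control Insm1 (0.60) and Ezh2 (0.62) were higher and Kit (-1.42) and Pax6 (-0.32) lower (3789 and 4574 of 22144 genes). Within ectopicFzd1 Sox2 (0.66) was higher and Neurod1 (-0.64), Sox11 (-0.68), Kit (-1.32) and Ezh2 (-0.36) lower (3238 and 4372 genes). Insm1 was at -0.47 in ectopicFzd1, and Neurod1 at -0.12, Sox11 at -0.10 and Sox2 at 0.37 in control, none of which passed. With 1 library left out at a time, the mean calls without DOX were lost in 8 of 17 fits for Hes6 (0.23 without Fzd1lacZ P14 replicate 3) and in 4 of 17 for Pax6 (0.13 without ectopicFzd1 P14 replicate 1). In control alone without DOX they were lost in 4 of 6 for Neurod1 (0.33 without P0 replicate 3), Insm1 (0.47 without P0 replicate 2) and Ezh2 (-0.26 without P14 replicate 1) and in 5 of 6 for Sox11 (0.37 without P0 replicate 3), and Kit kept its call in all 6.

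Averaged over 5 ages without DOX, 1 of the 9 genes differed between ectopicFzd1 and control, near the share over all genes, of which 9.19% were called (2.67% higher and 6.52% lower). The gene was Ezh2, which was higher by 0.22 (SE 0.0582, 95% interval 0.11 to 0.34, adjusted p = 0.00663) but came out at -0.010, the opposite sign, in TPM, a scale that put the median gene at -0.224. With DOX, when the transgene is off, Ezh2 was at 0.18 (95% interval 0.07 to 0.29, adjusted p = 0.0996), and the difference between the effect without and with DOX did not pass for it (0.26, 95% interval 0.08 to 0.44, adjusted p = 0.144). Ezh2 is the catalytic subunit of PRC2, which places the repressive methyl mark on histone H3 lysine 27. At P14, control had 50.8, 55.7 and 57.5 CPM of Ezh2 and ectopicFzd1 77.8 and 80.3 CPM, with no overlap (0.53, adjusted p = 0.0222; 1.76% of all genes called). The differences at the other ages were 0.08 at P0, 0.06 at P3, 0.29 at P7 and 0.15 at P10, and none passed (0.754%, 0.569%, 0.704% and 10.3% of all genes did). Leaving P7 and P14 out, where the title numbers of the 2 genotypes differ wholly or in part, Ezh2 no longer passed (0.10, adjusted p = 0.525; 5.08% of all genes called), nor did it over P3, P7 and P10, where Omp was low in control (0.17, adjusted p = 0.163; 10.8%). Both sets of ages were chosen after the values were seen. The P14 call was lost without control P14 replicate 1 (0.48) or replicate 2 (0.54), or without ectopicFzd1 P14 replicate 1 (0.55) or replicate 2 (0.51). It was also lost in 4 of 10 other settings, at 0.49 to 0.55: both TPM scales, no filter, and the Gm10800-type family left out before scaling.

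The other 8 genes did not pass in the gain of Fzd1: Neurog1 0.23, Neurod1 0.17, Insm1 0.19, Hes6 0.26, Sox11 0.14, Kit 0.08, Sox2 0.00 and Pax6 0.12. Their intervals were -0.15 to 0.15 for Sox2, -0.09 to 0.55 for Neurog1 and 0.05 to 0.47 for Hes6. None of 10 polycomb partners of Ezh2 was called, among them Eed (0.12) and Suz12 (0.04). Of 20 cell cycle genes 8 were higher, where 2.67% of all genes were called higher (median 0.25, with Top2a 0.31, Mcm6 0.31, Birc5 0.30 and Bub1 0.30). Their summed level at P14 was 741.9 to 811.8 CPM in control and 1045.9 to 1107.1 CPM in ectopicFzd1. Of 18 mature neuron genes 16 were lower, where 6.52% of all genes were called lower (median -0.79, with Kirrel2 -1.80, Omp -1.61, Stoml3 -1.48 and Faim2 -1.33). Calb2 was higher by 0.37 (adjusted p = 0.0441). Their part in the Ezh2 difference was not tested.

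Loss of Fzd1 likewise left 8 of the 9 short of the threshold: Neurog1 0.31, Neurod1 0.22 (95% interval 0.04 to 0.40), Insm1 0.15, Hes6 0.10, Sox11 -0.07, Kit 0.07, Ezh2 0.07 and Sox2 -0.02. Pax6, a paired-box factor of basal and sustentacular cells, was higher in Fzd1lacZ than in control over 5 ages by 0.21 (SE 0.0573, 95% interval 0.09 to 0.32, adjusted p = 0.0286; 2.85% of all genes called, 1.43% higher), but came out at -0.15, the opposite sign, as log2(TPM + 0.1), a scale that put the median gene at -0.343. Relative to the median gene, Ezh2 in ectopicFzd1 was at 0.21 with log2(TPM + 0.1) and 0.11 with log2(TPM + 1), and Pax6 in Fzd1lacZ at 0.20 and 0.061. At P14 it was at 42.3, 41.9 and 43.9 CPM in control and 57.5, 66.1 and 58.9 CPM in Fzd1lacZ, without overlap (0.52, adjusted p = 0.0193; 0.714% of all genes called). At P0, P3, P7 and P10 the differences were 0.15, -0.18, 0.21 and 0.34, and none passed (7.73%, 1.08%, 0.0858% and 0.285% of all genes did). Ezh2 was 53.5, 54.2 and 61.9 CPM in Fzd1lacZ at P14, within the range of control but for 1 library. Omp differed far more, by 3.40. Where 1.42% of all genes were called lower, 3 of 10 genes of the Bowman gland list were lower, as were 3 of 10 horizontal basal cell genes (Krt15 -0.93, Trp63 -0.39 and Lamb3 -0.36) and 1 of 12 sustentacular genes (Cyp1a2 -0.46). Their part in the Pax6 difference was not tested. These control mice differ from Fzd1lacZ mice in the Omp-IRES-tTA allele as well, so the 2 alleles cannot be told apart. The title number series of the 2 genotypes also differed at P0, P3, P7 and P10 and matched at P14 only. In the mean over ages series and genotype therefore cannot be told apart either. Without the libraries over 25% in the Gm10800-type family, 3191 of 23163 genes were called between Fzd1lacZ and control, in place of 630 of 22144. The mean Pax6 call was lost without control P0 replicate 2 (0.18), P3 replicate 2 (0.20), P7 replicate 1 (0.21) or P10 replicate 2 (0.19), or without Fzd1lacZ P0 replicate 1 or P14 replicate 2 (both 0.19). The P14 call was lost without any 1 of the 3 control libraries (0.50 to 0.54) or Fzd1lacZ replicate 2 (0.45) or 3 (0.54), and in 4 of 11 other settings at 0.31 to 0.57: both TPM scales, no filter, and only the groups compared.

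**Figure D3:**
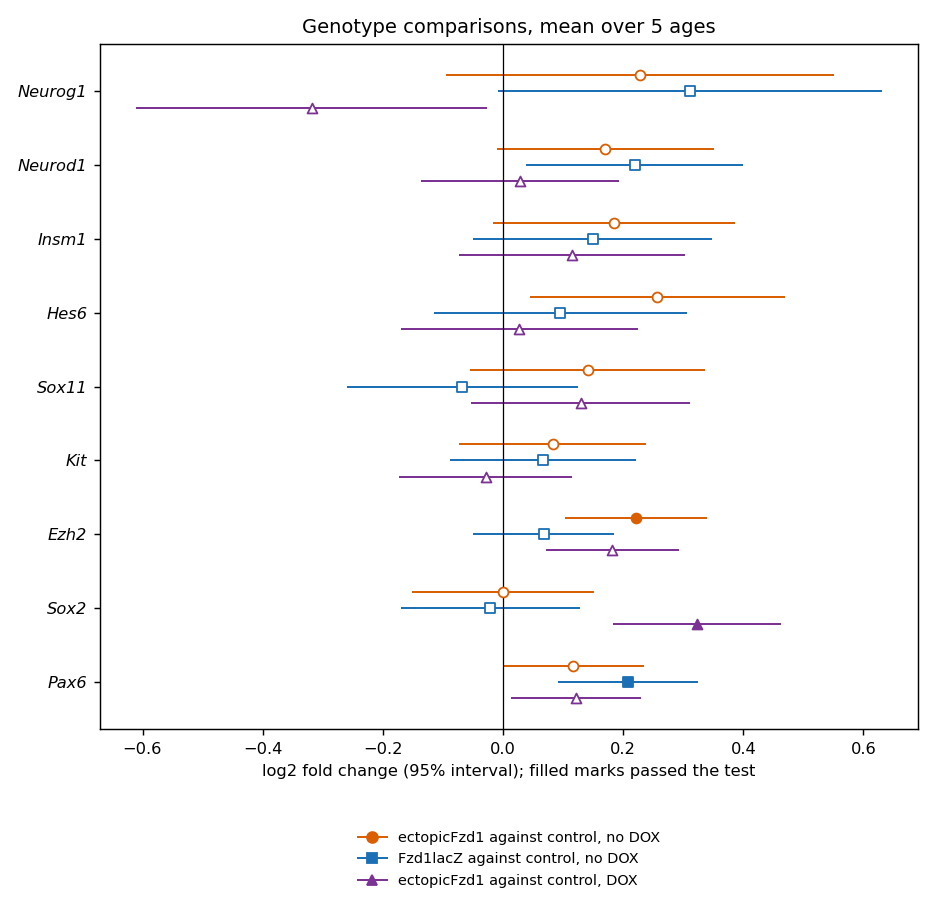
Log2 fold change with its 95% interval for each gene in the 3 genotype comparisons, each a mean over 5 ages; filled marks had an adjusted p below 0.05. One mark is filled in each comparison: Ezh2 in ectopicFzd1 without DOX, Pax6 in Fzd1lacZ and Sox2 in ectopicFzd1 with DOX; on the TPM scale the first 2 had the opposite sign.

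With DOX, when the transgene is off, the ectopicFzd1 mice differed from control in Sox2, which maintains progenitors: it was higher by 0.32 (SE 0.0691, 95% interval 0.18 to 0.46, adjusted p = 0.00672; 0.515% of all genes called higher). In control and ectopicFzd1 it was at 44.6, 55.3 and 50.5 against 65.4, 68.8 and 85.5 CPM at P3, and 36.7, 36.6 and 37.1 against 53.6, 50.9 and 51.5 CPM at P7, with no overlap at either age. Of the 25 groups, control DOX P7 had the lowest mean of Sox2 (36.8 CPM) and ectopicFzd1 DOX P3 the highest (73.2 CPM). The single ages P3, P7, P10 and P14 gave 0.55, 0.50, 0.28 and 0.29, and P1 gave 0.00. No single age passed for Sox2 (0.181%, 0.569%, 0.0858% and 0.199% of all genes did from P3 to P14). The title numbers of the 2 genotypes were of the same series at P1 only. They were of different series at P3, P7, P10 and P14, so series and genotype cannot be told apart there. The ectopicFzd1 DOX P3 libraries share 1 number, and control DOX P7 replicate 1 went against its label in Fzd1. The mean Sox2 call was lost in 2 of 10 other settings, both TPM scales (0.29 to 0.33 over all 10). At P1, where 14.8% of all genes were called, Ezh2 differed by 0.92 (adjusted p = 6.27e-07) and Insm1 by 0.75 (adjusted p = 0.00933). Control DOX P1 had 36.3, 40.1 and 38.1 CPM of Ezh2, the lowest of the 25 groups, and ectopicFzd1 82.6, 71 and 63 CPM. At that age 15 of 20 cell cycle genes were lower in ectopicFzd1 (6.11% of all genes called lower) and nasal cartilage genes were at 929.6 to 1094.5 CPM in control and 1404.9 to 2921.9 CPM in ectopicFzd1. Their part was not tested. The Insm1 call was lost without control DOX P1 replicate 2 (0.61) or ectopicFzd1 DOX P1 replicate 1 (0.61).

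**Figure D4:**
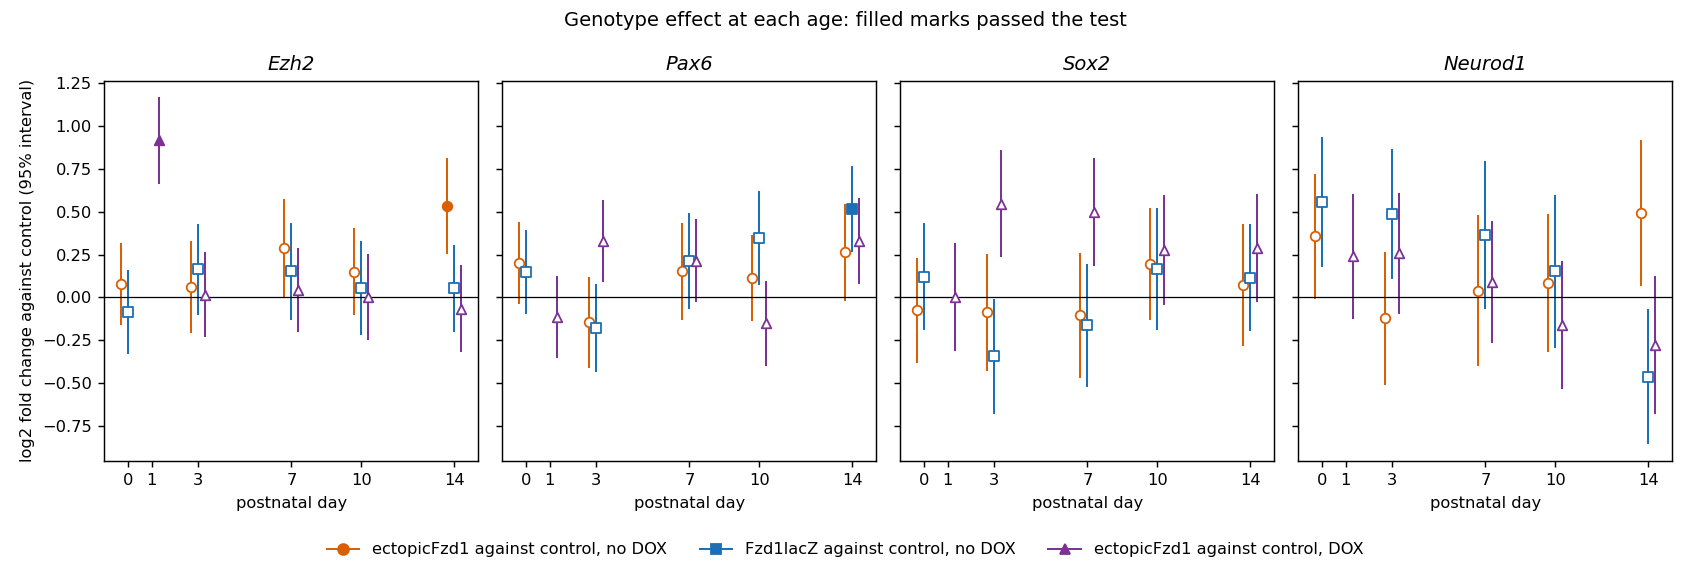
Log2 fold change against control with its 95% interval at each postnatal day for Ezh2, Pax6, Sox2 and Neurod1; colours and marks give the comparison, filled where the adjusted p at that age was below 0.05. Ezh2 is filled at P14 without DOX and at P1 with DOX, and Pax6 at P14 in Fzd1lacZ.

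The difference between the effect without and with DOX was itself tested, and 0 of the 9 passed edgeR's test (2.39% of all genes called). Sox2 came nearest, at -0.38 (95% interval -0.61 to -0.15, adjusted p = 0.0569), and 1 gene passed in some of the fits with 1 library left out. DOX alone, in control, called 0 of the 9 (0.867% of all genes). There 3 had an unadjusted p under 0.05: Neurog1 (0.37), Neurod1 (0.21) and Sox2 (-0.21, 95% interval -0.38 to -0.05). Whether the P0 to P14 change differed with genotype was tested too. In ectopicFzd1 none of the 9 differed from control (0.0858% of all genes called); Insm1 had the widest difference, 1.08 (adjusted p = 0.252). In Fzd1lacZ the change of Neurod1 differed, by -1.02 (SE 0.269, adjusted p = 0.027; 1.55% of all genes called lower). Control went from 22.6, 16.7 and 12.7 CPM to 27.5, 21.6 and 24.8 CPM and Fzd1lacZ from 29.7, 23.3 and 23.6 CPM to 20.5, 14.2 and 20.2 CPM, so the groups were in opposite order at the 2 ages. The title number series of these 2 genotypes differed at P0 and matched at P14, so series and genotype cannot be told apart at P0. The call was lost without control P0 replicate 2 (-0.99) or 3 (-0.84), control P14 replicate 1 (-0.93) or 3 (-1.02), Fzd1lacZ P0 replicate 1 (-0.89) or Fzd1lacZ P14 replicate 2 (-0.84), and in 3 of 10 other settings. By F tests over the 5 ages, the age course in control was called for 7 of the 9 (not Insm1 or Sox2; 46.6% of all genes), and 0 of the 9 for the dependence of the ectopicFzd1 (0.357%) or Fzd1lacZ effect (2.77%) on age.

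Genes whose group means followed a member most closely over the 25 groups were taken by Pearson's r, as a description in which libraries and scaling are shared. Kit went with Sapcd2 (0.96), Slc38a1 (0.95) and Cdk5rap2 (0.95), Neurod1 with Mfng (0.90) and Casr (0.84), and Hes6 with Marcksl1 (0.87), Ccng2 (0.86) and Wrap73 (0.85). Ezh2 went with Mtf2 (0.85), Insm1 with Gpr137b (0.80), Sox11 with Rev1 (0.80), Neurog1 with Lrrc75a (0.79), Sox2 with Tmem213 (0.77) and Pax6 with Prmt8 (0.75). Among the 36 pairs of the 9 genes r ran from -0.30 (Kit and Sox2) to 0.81 (Neurod1 and Hes6), with a median of 0.37. Neurod1 overlaps Cerkl on the same strand over 201 exonic bases (median counts 43 for Cerkl and 120 for Neurod1), so the reads of that stretch may have been split between them and its values are uncertain to that extent. Ezh2 overlaps Gm26625 on the other strand over 174 bases.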

How the data were processed

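TRIzol extraction, Ribo-Zero depletion and a TruSeq stranded kit gave the libraries, per the labels' protocols. The submitters' processing notes name bcl2fastq 2.18, STAR 2.6.1c, RSEM and build mm10. The strand setting of the counting is not given in the sources used here. The authors deposited raw counts per gene and, separately, TPM per gene. Counts were tested in R 4.3.3 with edgeR 4.0.16 (filterByExpr, TMM, quasi-likelihood test, 1 term per group, all 72 libraries, so that groups of 2 and 3 share 1 estimate of the spread; Benjamini-Hochberg over 22144 genes). Values per library are CPM on the scaled library size, and the precision of a value is set by 1314528 to 8788000 gene counts per library. A fold change has its SE and 95% interval from the same fit. The script was tested on simulated data. Of the 9 genes, the text names the called ones in each comparison of the main fit and only some of those that did not pass. Per list of related genes or cell type markers, it names called genes with the largest changes. Otx2, Lhx2, Sox9, Dll3, Hes5, Mfng, Hey1, Jag1, Kitl, Eed, Suz12, Calb2, Krt15, Trp63, Lamb3, Cyp1a2, Hdc, Gata2, Tyr, Dct, Mitf, Pmel, Cdk1, Mcm2, Mcm6, Rrm2, Tk1 and Ccnd1 were named after their values were seen. A gene of the lists is not reported here. The genes and lists were chosen with earlier results of these data known. P14 against P3, and the steps with DOX, were chosen after the values were seen. Alternatives tried were the Wald test of DESeq2 1.42.0, edgeR with DESeq2's scaling, 2 other filters, only the groups compared, limma 3.58.1 on log2(TPM + 1) and log2(TPM + 0.1), the Gm10800-type family left out, the title number series as a covariate, and libraries left out. Without a filter, dispersions were interpolated from the filtered fit, and with 1 library left out the gene set and trended dispersions of the full fit were kept.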

Additional observations from a re-analysis of the deposited data

Results flagged for a closer look

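The change of Neurod1 from P0 to P14 differed between Fzd1lacZ and control by -1.02 on the log2 scale (edgeR's quasi-likelihood test of the interaction, adjusted p = 0.027). It stands here because the same contrast gave different effects in 2 genotypes by a test of the difference itself. The call was lost in 6 of 12 fits that each left out 1 library and in 3 of 10 other settings (both TPM scales and no filter), at -0.84 to -1.19 over all of these, and the F test over the 5 ages called 0 of the 9 genes for the dependence of the Fzd1lacZ effect on age. At P0 the 2 genotypes were of different title number series, so series and genotype cannot be told apart there. The cause was not tested.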

How the results depend on the processing

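Over 13 settings other than leaving out single libraries, 1373 of 1683 single-gene values kept their sign and their side of the threshold, 86 lost the call and 59 gained it. Another 25 that were called in either fit took the opposite sign, and so did 140 that were called in neither. Leaving out each of the 72 libraries in turn gave 2700 values, of which 2494 kept both, 79 lost the call, 14 gained it, 113 called in neither fit took the opposite sign and 0 called ones did. The 25 and 84 of the 140 came from limma on TPM, where the median of all genes was shifted. With log2(TPM + 0.1) and then log2(TPM + 1), P14 against P0 gave Hes6 -0.40 and -0.38, Pax6 -0.56 and -0.52, Sox11 -0.23 and -0.22, and Sox2 -0.34 and -0.31. In control alone, Neurod1 with log2(TPM + 1) gave -0.0016. P14 against P1 with DOX gave Ezh2 -0.85 and -0.81, Hes6 -0.93 and -0.90, Insm1 -0.88 and -0.80, and Sox2 -0.43 and -0.40. P14 against P3 gave Sox2 -0.53 and -0.49 without DOX and -0.86 and -0.81 with DOX. Ezh2 in ectopicFzd1 gave -0.010 and -0.010, and Pax6 in Fzd1lacZ -0.15 and -0.13. Kit kept its call in P14 against P0 and in P14 against P3 under all of these settings.

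Counts of called genes also moved. On the 2 TPM scales P3 against P0 gave 1 with log2(TPM + 0.1) and 3 with log2(TPM + 1) in place of 8, P3 against P1 with DOX 0 in place of 6, P7 against P3 8 in place of 3, P14 against P1 with DOX 8 in place of 4, P14 against P0 in control 2 in place of 5, the ectopicFzd1 comparison 0 without and 0 with DOX in place of 1, Fzd1lacZ 2 in place of 1, and the change of Fzd1lacZ with age 0 in place of 1. Without a filter, control P14 against P0 gave 1, and ectopicFzd1 without DOX, Fzd1lacZ and the change of Fzd1lacZ with age gave 0. With only the groups compared, ectopicFzd1 without DOX gave 2, Fzd1lacZ 0, the DOX difference 2 in place of 0, DOX in control 1 in place of 0, and the change of ectopicFzd1 with age 1 in place of 0. Without the libraries over 25% in the Gm10800-type family, ectopicFzd1 gave 2 without DOX and 2 with DOX, the DOX difference 1, and the change with age 1 in ectopicFzd1 and 2 in Fzd1lacZ. With that family left out before scaling, control P14 against P0 gave 2. DESeq2's Wald test gave 2 for ectopicFzd1 with DOX, and it, its size factors in edgeR and a mean CPM of at least 1 each gave 1 for the DOX difference. With the title number series as a covariate P7 against P3 gave 1, and over the age sets P0, P3 and P10, or P3, P7 and P10, ectopicFzd1 gave 0. The covariate could not be fitted for the other comparisons that the report averages over ages or genotypes. Among these were P3 against P0, P14 against P3 and P14 against P0 without DOX. The exceptions were P14 against P3 with DOX and ectopicFzd1 over P0, P3, P7 and P10. Nor could it be fitted for P14 against P0 in control or for the difference of that change between genotypes. The causes were not tested.

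Leaving out 1 library gave 7 to 8 called genes for P3 against P0, 2 to 3 for P7 against P3, 5 to 7 for P14 against P3, 4 to 7 for P14 against P0, 1 to 5 in control, 5 to 7, 6 to 7 and 3 to 4 for P3 against P1, P14 against P3 and P14 against P1 with DOX, 1 to 1 for ectopicFzd1 without and with DOX, 0 to 1 for Fzd1lacZ, the change of Fzd1lacZ with age and the DOX difference, and 0 to 0 for DOX in control and the change of ectopicFzd1 with age. Ezh2 in ectopicFzd1 without DOX and Sox2 in ectopicFzd1 with DOX kept their call without any single library. No paired analysis was possible because the labels carry no replicate numbers; those in the text only name libraries. Depth limits Neurog1 most, with a median of 28 counts per library.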
